A study of Mus musculus with 8 samples.

Results

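The ER translocon and signal peptidase set is a group of 10 genes for the machinery that moves new proteins into the endoplasmic reticulum (ER) and cuts off their signal peptides. The members were chosen by gene symbol: the channel subunits Sec61a1, Sec61b and Sec61g, the translocon-associated protein (TRAP) subunits Ssr1, Ssr2, Ssr3 and Ssr4, the partner proteins Sec62 and Sec63, and the signal peptidase subunit Spcs1. All 10 symbols were found among the 54427 genes of the table, and all 10 passed the filter on low values. RNA was sequenced from primary pancreatic acinar cells of wild-type (WT) mice, whose age and sex the labels used here do not give. Every library comes from cells injured for 6 h with 1 µM cholecystokinin octapeptide (CCK). This peptide hormone drives enzyme secretion and harms acinar cells at high concentration. By their titles, 4 libraries (AP) carry that injury alone and 4 (AP_OCA) carry it together with OCA, which usually stands for obeticholic acid, a drug that activates FXR, the nuclear receptor for bile acids. The stated OCA concentration of 2.5 µM stands in the treatment text of all 8 libraries, so the absence of OCA in AP rests on the titles. No uninjured group was analysed here, and the labels do not say whether replicates came from separate mice or from separate cell preparations, so p-values measure the spread between these samples.

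Secretory proteins are made on ribosomes that a signal recognition particle (SRP) brings to the ER membrane. There the nascent chain enters the Sec61 channel, which is formed by a large pore subunit encoded by Sec61a1 and small membrane-anchored subunits encoded by Sec61b and Sec61g. TRAP sits beside the channel and helps signal sequences that gate it poorly, Sec62 and Sec63 assist chains that enter slowly or after synthesis, and signal peptidase removes the signal peptide. Acinar cells make large amounts of digestive enzymes, all of which pass this route, and are rich in rough ER.

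Levels are given in CPM, the deposited value taken back from its log2 scale and set to a sum of 1000000 per library. The authors' values had been made to share a common distribution across libraries, so a CPM here marks a place in that distribution and not a share of reads, and the read depth of each library is unknown. The libraries held 15394 to 16640 genes above 0, except AP_OCA replicate 2 with 21010. That library correlated with the other 7 at 0.561 to 0.635 across genes, against 0.873 to 0.981 among the other 7, and it is shown apart below. The lower part of that last range came from AP_OCA replicate 4, whose correlations were 0.873 to 0.940. Pairs without AP_OCA replicates 2 and 4 had 0.941 to 0.981. The acinar markers Ctrb1 and Pnlip stood near the top of every library, and 8 acinar markers summed to 312983 to 322777 CPM in AP, 294121 to 308220 in AP_OCA replicates 1, 3 and 4, and 270676 in AP_OCA replicate 2. Much of this sum is Ctrb1, which had the highest value of each library, 116519 to 116526 CPM, as the shared distribution fixes it. Over 7 libraries 3 of the 8 acinar markers had a positive and 5 a negative log2 fold change, with a median of -0.008. Cel, singled out after its values were seen, was the 1 marker of the 8 whose groups did not overlap. Its mean was 34874 CPM in AP and 23114 in AP_OCA replicates 1, 3 and 4. In AP_OCA replicate 2, 3 of the 8 acinar markers lay more than 2-fold below their lowest level in the other 7: Bhlha15 (5.05 CPM against 63.1), Ptf1a (1.12 against 17.4) and Amy2a5 (353 against 1770.1), chosen after their values were seen. In AP_OCA replicate 2 all 7 T cell markers (summed level 470.2 CPM, led by Trbc2 and Cd3d) and 9 of 10 plasma and B cell markers (3456 CPM, led by Igkc and Ighm) exceeded by more than 2-fold their highest level in any of the other 7, as did 6 of 7 macrophage markers (788 CPM), whereas all 8 islet markers (9.09 CPM) and 4 of 6 ductal markers (22.5 CPM) lay more than 2-fold below their lowest. The T cell sum was at most 0.45 CPM elsewhere and the plasma and B cell sum at most 69.1, with 3 of 7 T cell markers at 0 in every AP library, and 5 of 7 T cell and 4 of 10 plasma and B cell markers at 0 in AP_OCA replicates 1, 3 and 4. Plasma cells are themselves rich in translocon. Among the other 7 libraries, endothelial markers (led by Eng and Pecam1) summed to 68.4 to 94.1 CPM in AP and 25.0 to 56.1 in AP_OCA, stellate markers (Col3a1, Dcn) to 170.5 to 231 and 106 to 162, and ductal markers (Krt19, Spp1) to 144 to 222 and 268 to 316, so these 3 sums, like the acinar sum, did not overlap between the groups. Within the stellate list 5 of 7 markers had a negative fold change over 7 libraries, while Dcn had 0.46 and Lum 0.07. Macrophage markers (Lyz2, Cd14) summed to 92.2 to 169 and 101 to 117 CPM, and islet markers (Ins2, Ins1) to 508 to 2149 and 1241 to 1727. Within the macrophage list 4 of 7 markers had a negative and 3 a positive fold change over 7 libraries. For 2 of the 7 AP_OCA lay wholly below AP, as for 12.1% of all genes. The part of these other cell types in the results below was not tested. In such bulk samples fewer cells of a type and less RNA per cell cannot be told apart.

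Most members had higher mean levels with OCA, but the spread between the AP_OCA libraries was wide and a single member passed the test over all genes. With AP_OCA replicate 2 left out, Spcs1 rose, and it was the member of the 10 that passed limma (adjusted p = 0.0486, limma with Benjamini-Hochberg adjustment over 10894 genes). In that comparison 2.44% of all genes tested passed, 0.854% higher and 1.59% lower. Fold changes were positive for 9 of 10 members, where 50% of all genes had a positive value, with a median of 0.53 on the log2 scale against 0.00 over all genes. Sec61a1 was the exception, at -1.01. In 5 of 10 members (Sec61b, Sec61g, Ssr1, Ssr3 and Spcs1) every AP_OCA library lay above every AP library, a pattern that 11.1% of all genes showed in this direction. An unadjusted p under 0.05 was reached by 7 members, all higher, against 11.8% of all genes. With all 8 libraries none of the 10 members passed limma, nor did any gene (0%), and 9 of 10 again had a positive fold change (49.1% of all genes), with a median of 0.46. In that comparison 4 members were higher and 1 lower at an unadjusted p under 0.05, where 7.31% of all genes were higher and 8.87% lower, and 4 had groups that did not overlap (6.75% of all genes, AP_OCA higher). None of the 10 had AP_OCA wholly below AP, where 8.57% of all genes did, nor over 7 libraries, where 12.1% did. With limma quality weights per library 2 members, Sec61g and Spcs1, passed over all 8 libraries, both higher. There 9.3% of all genes passed in either direction, 481 of 11311 higher and 571 lower. Over 7 libraries these weights called 4 members, all higher, where 15.4% of all genes passed (775 of 10894 higher and 900 lower). A fit with the replicate number as a block called 3, all higher, where 5.13% passed (235 higher and 324 lower). In that block fit AP replicate 2 has no partner of its number, so it does not bear on the fold changes.

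**Figure D1:**
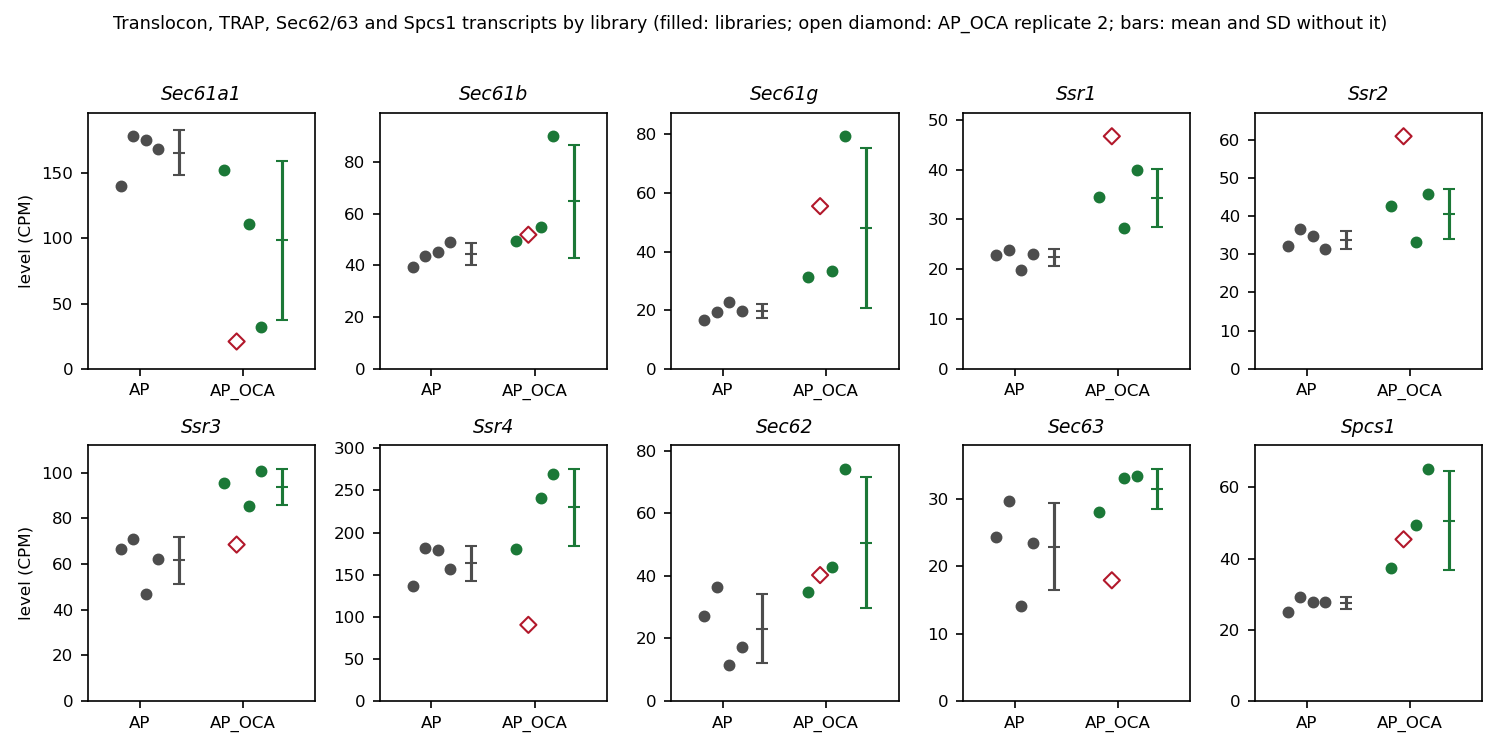
Each panel plots the level of a member in CPM (linear axis from 0) for the 4 AP libraries (grey), AP_OCA replicates 1, 3 and 4 (green) and AP_OCA replicate 2 (open red diamond), in order of replicate number, with the mean and SD of AP and of the 3 green libraries at the right of each group. Spcs1 and Sec61g show complete separation of the groups, while Sec61a1 spreads from 31.7 to 152 CPM within the green libraries.

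Spcs1 encodes a small non-catalytic membrane subunit of signal peptidase and lies on chromosome 14 (30999826 to 31001672, minus strand, mm10). Its level was 25.1, 29.2, 27.8 and 27.7 CPM in AP replicates 1 to 4, and 37.4, 49.3 and 65.3 in AP_OCA replicates 1, 3 and 4. AP_OCA replicate 2 had 45.4 CPM, so all 4 AP_OCA libraries lay above the highest AP library. The mean was 27.4 ± 1.72 in AP (SD, n = 4) and 50.7 ± 13.97 in AP_OCA (n = 3), a log2 fold change of 0.83 ± 0.20 (SE). With a trend on transcript length and GC content removed from each library it was 0.15 ± 0.14 (adjusted p = 0.578 by limma). The call was also lost with the deposited log2 values (adjusted p = 0.0583), with a pseudocount of 0.1 CPM (0.0543), without limma's variance trend (0.088) and without a filter on low values (0.191). Over all 8 libraries it was 0.80 ± 0.22 (adjusted p = 0.26 by limma). The call was also lost on leaving out any of AP replicates 1, 2, 3 or 4 or AP_OCA replicates 3 or 4 (adjusted p 0.0743 to 0.124 by limma) and kept without AP_OCA replicate 1.

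Among the subunits of the Sec61 channel, the small ones had a higher and the large one a lower mean level with OCA, and none of the 3 passed. Sec61g (chromosome 11, 16500530 to 16508484, minus strand) had 16.8, 19.3, 22.7 and 19.9 CPM in AP replicates 1 to 4 and 31.2, 33.5 and 79.4 in AP_OCA replicates 1, 3 and 4, with 55.5 in AP_OCA replicate 2. Every AP_OCA library was above every AP library, and AP_OCA replicate 4 was the highest. The log2 fold change was 1.12 ± 0.28 over 7 libraries, just short of the threshold (adjusted p = 0.0513 by limma), and 1.20 ± 0.31 over all 8 (adjusted p = 0.26). Without AP_OCA replicate 4 it was 0.70, and without AP_OCA replicate 1 Sec61g passed (1.36, adjusted p = 0.0202 by limma).

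Sec61b had 39.2, 43.7, 45.2 and 49.2 CPM in AP and 49.5, 54.7 and 89.9 in AP_OCA replicates 1, 3 and 4, with 51.8 in AP_OCA replicate 2. The groups did not overlap, but only by the small step from 49.2 to 49.5, and AP_OCA replicate 4 stood far above the rest. Its log2 fold change of 0.49 ± 0.21 did not pass (adjusted p = 0.159 by limma) and was 0.23 without AP_OCA replicate 4.

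Sec61a1 (chromosome 6, 88503579 to 88518905, minus strand), the pore subunit, had 140.3, 178, 175 and 168 CPM in AP. In AP_OCA it had 152, 111 and 31.7 in replicates 1, 3 and 4, and 20.9 in replicate 2. AP_OCA replicate 1 lay inside the AP range, replicate 3 below it, and replicates 2 and 4 far below. The log2 fold change was -1.01 ± 0.47 over 7 libraries (adjusted p = 0.218 by limma) and -1.48 ± 0.58 over all 8 (adjusted p = 0.285), and -0.34 without AP_OCA replicates 2 and 4.

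The ratio of Sec61a1 to Sec61g CPM, looked at after these values were seen, was 8.34, 9.26, 7.72 and 8.46 in AP replicates 1 to 4. It was 4.87, 3.33 and 0.399 in AP_OCA replicates 1, 3 and 4, and 0.377 in AP_OCA replicate 2. All 4 AP_OCA libraries lay below the lowest AP library, and in replicates 2 and 4 the pore subunit transcript had the lower level of the pair in CPM. The fold changes of the pair kept their opposite signs with the length and GC trend described below removed (-0.73 and 0.52).

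**Figure D2:**
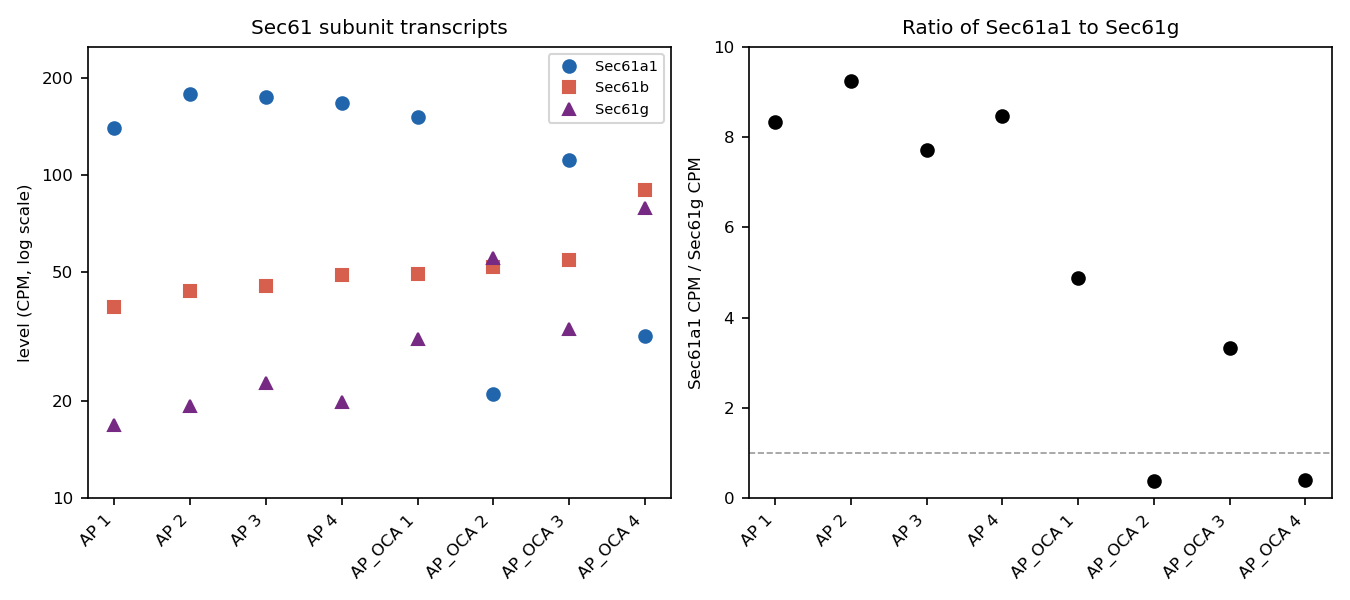
The left panel plots the level in CPM (log axis) of Sec61a1, Sec61b and Sec61g in each of the 8 libraries, and the right panel the ratio of Sec61a1 to Sec61g CPM (linear axis, dashed line at 1). The ratio lies between 7.72 and 9.26 in the AP libraries and at 4.87 or below in the AP_OCA libraries.

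All 4 TRAP transcripts had higher means in the 3 AP_OCA libraries, and none of the 4 passed. Ssr3, the gamma subunit, had 66.5, 70.8, 46.8 and 62.2 CPM in AP and 95.4, 85.2 and 101 in AP_OCA replicates 1, 3 and 4. These groups did not overlap, and AP replicate 3 was the lowest library, but AP_OCA replicate 2 with 68.5 CPM fell inside the AP range. Its log2 fold change was 0.61 ± 0.18 (adjusted p = 0.0702 by limma), and 0.50 over all 8 libraries. Ssr1, the alpha subunit, had 22.8, 23.9, 19.9 and 23.1 CPM in AP and 34.6, 28.2 and 39.9 in the same AP_OCA libraries, with 46.7 in AP_OCA replicate 2. All 4 AP_OCA libraries were above all 4 AP libraries, and the log2 fold change was 0.58 ± 0.18 (adjusted p = 0.0798 by limma) over 7 libraries and 0.69 over 8. Ssr4, the delta subunit, was the most abundant of the 4, at 164 ± 20.8 CPM in AP (SD, n = 4) and 230.3 ± 45.8 in AP_OCA (n = 3). AP_OCA replicate 1, at 180.0 CPM, was below AP replicate 2 at 181, so the groups overlapped, and AP_OCA replicate 2 stood at 90.5, below every other library. The log2 fold change of Ssr4 was 0.48 ± 0.19 over 7 libraries and 0.15 ± 0.36 over 8. Ssr2, the beta subunit, had the smallest difference of the 10 members over 7 libraries, 0.25 ± 0.18, with 33.7 ± 2.38 CPM in AP and 40.6 ± 6.55 in AP_OCA, and its highest level, 60.9 CPM, was in AP_OCA replicate 2.

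Sec62 and Sec63 varied widely within AP, and their groups overlapped. Sec62, which also acts as a receptor for the turnover of ER by autophagy, had 27.3, 36.4, 11.6 and 17.3 CPM in AP replicates 1 to 4. In AP_OCA replicates 1, 3 and 4 it had 34.7, 42.7 and 74.3, with 40.2 in AP_OCA replicate 2. AP replicate 2 was above AP_OCA replicate 1, and AP replicate 3 was the lowest. The log2 fold change of 1.14 ± 0.37 was the highest of the 10 members over 7 libraries but did not pass (adjusted p = 0.104 by limma), while over all 8 it was 1.08 against 1.20 for Sec61g. Over 7 libraries it was 0.87 without AP replicate 3 and 0.83 without AP_OCA replicate 4. Sec63, which recruits the lumenal chaperone BiP to the channel, had 24.3, 29.7, 14.1 and 23.5 CPM in AP and 28.0, 33.1 and 33.3 in AP_OCA, with 17.9 in AP_OCA replicate 2. AP replicate 3 was again the lowest library. Its log2 fold change was 0.48 ± 0.23 over 7 libraries (adjusted p = 0.198 by limma), 0.28 without AP replicate 3, and 0.29 over all 8.

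By library, 6 members in AP_OCA replicate 1, 8 in replicate 3 and 9 in replicate 4 lay above all 4 AP libraries, against 23.7%, 26.4% and 33.1% of the genes tested over 7 libraries. The member below all 4 AP libraries in replicates 3 and 4 was Sec61a1, and none was in replicate 1, where 26.8%, 36.5% and 22.3% of genes were below. The median difference of the members from their AP means was 0.39, 0.52 and 0.77 on the log2 scale in replicates 1, 3 and 4. AP_OCA replicate 2 had 6 members above and 2 members, Sec61a1 and Ssr4, below all AP libraries, where 36.1% and 46.2% of genes were, and its median difference was 0.47. Set against all 7 other libraries, it was highest for Ssr1 and Ssr2, lowest for Sec61a1 and Ssr4, and within their range for the other 6, where 29.3% of genes were highest, 38.8% lowest and 31.9% within the range.

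Per kilobase of annotated transcript, the members spread over a wide range of levels. Ssr4 led the AP libraries with 214 ± 27.2 CPM per kb (SD, n = 4), followed by Sec61b (78.6 ± 7.33), Sec61a1 (52.2 ± 5.45), Spcs1 (39.1 ± 2.44), Ssr2 (29.98 ± 2.11), Sec61g (26.7 ± 3.28) and Ssr3 (20.8 ± 3.53). Sec62 (5.83 ± 2.76), Sec63 (3.80 ± 1.07) and Ssr1 (2.40 ± 0.186) were lowest. Libraries of neighbours in this order overlapped for Ssr2 and Sec61g, Sec61g and Ssr3, Sec62 and Sec63, and Sec63 and Ssr1, and did not overlap for the other neighbours. The place of Sec61g depends on its transcript, since its annotated transcripts of 450 to 1862 bases give 43.7 to 10.6 CPM per kb, and Ssr1 has a single annotated principal transcript of 9333 bases. In AP_OCA replicates 1, 3 and 4 the levels of Sec61b, Spcs1 and Sec61g were 115 ± 38.97, 72.2 ± 19.9 and 65.3 ± 37.0 CPM per kb (n = 3), and that of Sec61a1 was 31.0 ± 19.3.

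Fold changes of these libraries followed transcript length and GC content, and so did those of several members. Genes were ranked and split into 5 equal bins. Over 7 libraries the median log2 fold change was 0.29 in the bin of shortest transcripts, which holds Sec61b, Sec61g, Ssr2, Ssr4 and Spcs1, and -0.14 in the bin of longest ones, which holds Ssr1 and Sec63. It was 0.26 in the bin of lowest GC content, which holds Ssr1, Ssr3, Sec62, Sec63 and Spcs1, and -0.23 in that of highest GC content, which holds no member. With a trend on both removed from each library, Spcs1 had the value of 0.15 given above, Sec61b had 0.10 ± 0.15 and Sec61g 0.52 ± 0.20. Ssr1 (0.57 ± 0.16), Sec62 (0.99 ± 0.30) and Sec63 (0.43 ± 0.15) stayed near their values before removal, whereas Ssr3 had 0.33, Ssr4 0.23, Ssr2 0.10 and Sec61a1 -0.73. None of the 10 passed after removal, where 0.945% of all genes did. The median was then 0.28, 9 of 10 fold changes were positive (51.6% of all genes), and AP_OCA lay wholly above AP for 3 members (9.62% of all genes). These were Ssr1 and Ssr3, as before removal, and Sec63, whose groups had overlapped, while the groups of Sec61b, Sec61g and Spcs1 now overlapped. Over all 8 libraries with the trend removed 7 of 10 were positive (51.2% of all genes), AP_OCA lay wholly above AP for Ssr1 alone (4.91% of all genes), and Sec61b (-0.018) and Ssr4 (-0.14) changed sign.

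**Figure D3:**
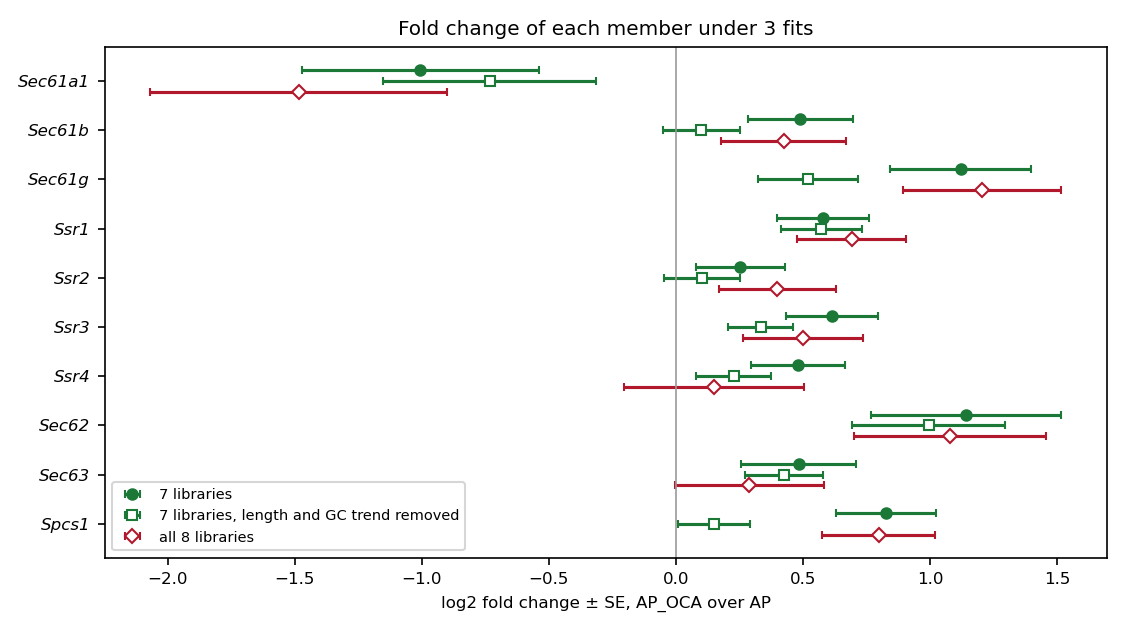
For each member the plot gives the log2 fold change of AP_OCA over AP with its standard error in 7 libraries (filled green circles), in 7 libraries with the trend on transcript length and GC content removed (open green squares) and in all 8 libraries (open red diamonds). Spcs1 moves from 0.83 to 0.15 on removal of the trend, while Ssr1 stays at 0.58 and 0.57.

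The 5 members whose groups did not overlap in the 7 libraries were picked from these same values. The groups of Sec61b, Sec61g and Spcs1 overlapped once the length and GC trend was removed. For each of the 5 the 250 bases before the annotated start are shown. These come from RefSeq on build GRCm38.p6, which holds such a window for 8 of the 10 members, and are written 5′ to 3′ on the strand of the gene. Capitals mark the letters CCACG and CCAAT on either strand, which together form the ER stress response element (ERSE).
Sec61b (chr4:47474411-47474660, plus strand): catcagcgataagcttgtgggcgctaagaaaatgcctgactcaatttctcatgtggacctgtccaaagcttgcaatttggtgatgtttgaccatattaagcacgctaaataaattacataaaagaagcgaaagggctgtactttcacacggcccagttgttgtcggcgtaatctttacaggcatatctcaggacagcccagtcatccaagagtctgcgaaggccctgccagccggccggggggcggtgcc
Sec61g (chr11:16508485-16508734, minus strand): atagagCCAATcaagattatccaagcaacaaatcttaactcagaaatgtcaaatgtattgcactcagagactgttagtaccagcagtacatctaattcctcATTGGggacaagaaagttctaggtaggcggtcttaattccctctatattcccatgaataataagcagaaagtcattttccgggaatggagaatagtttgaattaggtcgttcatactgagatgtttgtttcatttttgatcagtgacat
Ssr1 (chr13:37994209-37994458, minus strand): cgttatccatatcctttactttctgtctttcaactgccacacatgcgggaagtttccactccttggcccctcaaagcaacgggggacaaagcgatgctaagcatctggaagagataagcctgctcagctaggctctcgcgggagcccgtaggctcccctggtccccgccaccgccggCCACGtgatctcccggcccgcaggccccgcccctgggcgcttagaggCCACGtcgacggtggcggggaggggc
Ssr3 (chr3:65392554-65392803, minus strand): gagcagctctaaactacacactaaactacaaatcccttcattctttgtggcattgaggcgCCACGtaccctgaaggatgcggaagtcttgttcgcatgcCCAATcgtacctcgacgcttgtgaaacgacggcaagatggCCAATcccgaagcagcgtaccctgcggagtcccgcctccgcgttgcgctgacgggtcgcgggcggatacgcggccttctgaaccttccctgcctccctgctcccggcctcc
Spcs1 (chr14:31001667-31001916, minus strand): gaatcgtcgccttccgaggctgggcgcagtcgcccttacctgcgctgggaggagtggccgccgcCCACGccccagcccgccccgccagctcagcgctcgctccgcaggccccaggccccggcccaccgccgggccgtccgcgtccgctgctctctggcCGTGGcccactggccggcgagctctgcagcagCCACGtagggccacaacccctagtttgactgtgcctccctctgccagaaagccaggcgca
The full ERSE, searched as CCAAT, 9 bases of any kind and CCACG on either strand, occurred in none of the 8 windows, in 0.113% of 32851 promoter windows of the same length, and in that of Hspa5, which encodes BiP. ERSE-II, searched as ATTGG, 1 base of any kind and CCACG (0.0304% of windows), and the unfolded protein response element core TGACGTGG (0.563%) were also without a match in the 8. CCACG alone, which is contained in all 3 of these motifs on either strand, was found in 4 of the 8 (Sec63, Spcs1, Ssr1 and Ssr3) against 28.3% of windows, with 3 matches in Spcs1 and 2 in Ssr1. CCAAT was found in 3 of the 8 (Sec61g, Sec63 and Ssr3) against 33.8%. The window of Sec61b holds neither.

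The other genes of ER targeting were read from lists of 46 genes, of which 45 passed the filter on low values; Serp2 did not. Over the 7 libraries 2 of the 45 rose, none fell and 43 did not pass, where 0.854% of all genes rose and 1.59% fell. Their median log2 fold change was 0.27. Over all 8 libraries it was 0.16, with 25 positive and 20 negative values, where 49.1% of all genes were positive. Over 7 libraries all 5 of the other signal peptidase genes and signal peptide peptidase had groups that did not overlap, as 11.1% of all genes did with AP_OCA higher, although none of these 5 passed. After removal of the length and GC trend 3 of the 5 had such groups (9.62% of all genes), and over all 8 libraries 3 of the 5 did (6.75%), Spcs3 and H13 overlapping. Their fold changes ran from 0.36 to 0.74. The catalytic subunit gene Sec11c had 55.0 ± 3.61 CPM in AP (SD, n = 4) and 94.6 ± 26.98 in AP_OCA (n = 3), a log2 fold change of 0.74 ± 0.19 (adjusted p = 0.0553 by limma), and Spcs2 and Spcs3 had 0.48 ± 0.19 and 0.63 ± 0.19. H13, which encodes signal peptide peptidase, had 134 ± 8.20 and 177 ± 16.3 CPM (0.39 ± 0.16), and it was the gene of the targeting lists that passed once the length and GC trend was removed (0.80, adjusted p = 0.0373 by limma; singled out after its values were seen). Sec11c had 0.32 after that removal and Spcs2 0.47.

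In the SRP and its receptor 1 of 10 genes rose, against 0.854% of all genes: Srp19 (0.98 ± 0.22, adjusted p = 0.0406 by limma). Its product helps load the signal-binding subunit onto the particle's RNA, and its level was 9.88 ± 1.94 CPM in AP and 20.5 ± 4.53 in AP_OCA. Srp9 (0.84 ± 0.23) and Srp14 (0.62 ± 0.21), which together slow elongation, did not pass but had groups that did not overlap. This held with AP_OCA higher for 4 of the 10 over 7 libraries, against 11.1% of all genes. With the length and GC trend removed Srp19 had 0.31, Srp9 0.39 and Srp14 0.20, and none of the 3 passed. After that removal AP_OCA lay wholly above AP for 3 of the 10 (9.62% of all genes) and wholly below for 1. Over all 8 libraries 4 of the 10 SRP and receptor genes had a positive and 6 a negative fold change (median -0.07). Over 7 libraries 7 were positive and 3 negative (median 0.24). In the multipass translocon, which serves proteins with several membrane spans, Tmem147 rose (0.73 ± 0.18, adjusted p = 0.0486 by limma; 0.52 with the trend removed, not passing) and the other 5 of 6, Wdr83os (0.57 ± 0.23) and Ccdc47 (0.35 ± 0.20) among them, did not pass.

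None of 7 tested translocon partners, 10 subunits of the ER membrane complex or 7 genes of the GET route for tail-anchored proteins passed. The membrane protein gene Tram1 had 0.61 ± 0.17, and Hspa5 had 877 ± 257 CPM in AP and 1732 ± 586 in AP_OCA (0.98 ± 0.28, adjusted p = 0.0665 by limma), with 291 CPM in AP_OCA replicate 2. Hyou1 had 0.00. In the ER membrane complex Emc2 had 0.76 ± 0.29 and Emc1 -0.59 ± 0.27. In the GET route Caml had 0.55 ± 0.19, Wrb 0.60 ± 0.23, Bag6 -0.71 ± 0.28 and Asna1 -0.22 ± 0.22. The oligosaccharyltransferase, which adds N-glycans beside the same channel, had a median of 0.38 against 0.53 for the members over 7 libraries. After removal of the length and GC trend the order was the opposite, 0.34 against 0.28, and with quality weights both medians were 0.42. Among its 12 genes the subunit gene Magt1 rose (1.04 ± 0.25, adjusted p = 0.0490 by limma), where 0.854% of all genes rose. Its small subunits Krtcap2 (0.72 ± 0.20), Tmem258 (0.73 ± 0.21) and Ostc (0.69 ± 0.21) did not pass. The difference between these genes and the members was not tested. The calls of Srp19, Tmem147 and Magt1 were lost on leaving out any of AP replicates 1, 2, 3 or 4 or AP_OCA replicates 3 or 4, when none of the 57 tested genes of these lists passed, while 10 passed without AP_OCA replicate 1, where 8.92% of all genes passed (0.0644% to 1.1% in the other 6 fits). With the trend removed Magt1 had 0.85 and did not pass. Over all 8 libraries none of the 57 tested genes in these lists passed limma, while 12 were higher and 1 lower at an unadjusted p under 0.05, against 7.31% and 8.87% of all genes.

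**Figure D4:**
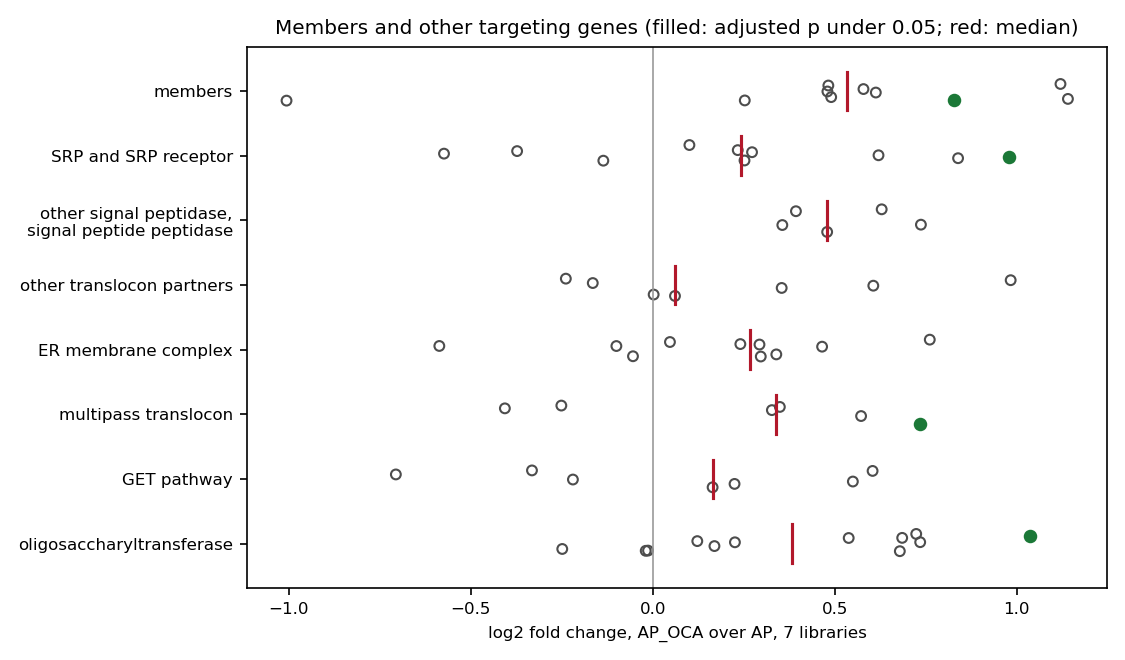
Each point is the log2 fold change of a gene (AP_OCA over AP, 7 libraries), with a row for the 10 members and for each list of other targeting genes, filled where the adjusted p is under 0.05 and with the list median as a red bar. The signal peptidase row lies wholly above 0, between 0.36 and 0.74, and the members' row holds Sec61a1 at -1.01 as its lowest point.

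The genes most like the members in pattern were found by Pearson's correlation with the mean of the members' standardised values over the 7 libraries, a mean that itself holds both groups. Vti1b, a SNARE of endosomal and Golgi vesicles, had the highest value (r = 0.999, n = 7 libraries), followed by the oligoribonuclease gene Rexo2 (0.994), Smim4 (0.993), Ufm1 (0.99), a ubiquitin-like modifier that is attached to ribosomes at the ER, and Znhit6 (0.989). These are the top 5 of the genes tested, with the members and symbols of clones, Gm models, accession numbers and pseudogenes left out. High values are therefore given by the selection. Vti1b had 13.6 ± 1.29 CPM in AP and 19.5 ± 2.84 in AP_OCA, and Ufm1 32.9 ± 5.10 and 51.5 ± 11.6. Neither passed (adjusted p = 0.129 and 0.0798 by limma). Among the members, the correlation with that mean ran from 0.777 for Sec63 to 0.959 for Ssr1, and was -0.814 for Sec61a1. Each member is itself part of that mean, so these values do not measure how far the members vary together.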

How the data were processed

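RNA-seq values of 8 libraries (4 AP, 4 AP_OCA, grouped and numbered by their titles) were read from a single table. Per the labels' protocols, libraries were made with a SMARTER kit, and per the submitters' processing notes the build was mm10. The aligner, counter and annotation are not given in the sources used here. The deposited values are log2 numbers, as their range shows: the lowest is the log2 of 0.01 in each library and the highest is shared, so the authors' values were read as log2 of quantile normalised counts plus 0.01. Raw counts are not used here and depth is unknown; a level of 1 CPM lay 9 to 14 value steps above 0 in 7 libraries and 65 in AP_OCA replicate 2.

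Values were returned to the linear scale, scaled to 1000000 per library, and tested as log2(CPM + 1), which understates changes of low genes, with limma 3.58.1 in R 4.3.3 (trend, robust; two-sided) on genes whose mean reached 1 CPM. This was done over all 8 libraries and without AP_OCA replicate 2. p-values were adjusted by Benjamini-Hochberg over all genes tested, threshold 0.05. The fits were checked on data simulated with the means and spreads of the libraries other than AP_OCA replicate 2. That check did not cover the effect of an outlying library such as AP_OCA replicate 2. Transcript lengths, GC content and coordinates came from GENCODE M21 (mm10), matched by symbol for 53749 genes; the length is the median over a gene's principal transcripts. The length and GC trend was a spline fit per library. Members and lists were chosen with earlier results of these data known. Named genes are the members, up to 2 genes of lowest p per list and comparison, the 5 of most similar pattern, and the 2 most abundant of each marker list; others are marked. Alternatives were other normalisations, filters, pseudocounts and variance models, the replicate block, removal of the trend, the deposited log2 values, and each library left out.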

Additional observations from a re-analysis of the deposited data

Results flagged for a closer look

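Sec61b in AP_OCA replicate 4 stood apart from the other libraries of its group, at 89.9 CPM against 49.5, 51.8 and 54.7 in AP_OCA replicates 1, 2 and 3. Its gap to the nearest of them made up 0.872 of the range of the group, above the 95% critical value of Dixon's test for 4 samples. Of 20 groups looked at (10 members in AP and in AP_OCA) this was the single case, and chance gives about 1 in 20. Without AP_OCA replicate 4 the log2 fold change of Sec61b was 0.23 against 0.49.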

How the results depend on the processing

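Over 7 libraries the count of members that passed was 1. It was 0 with the deposited log2 values, limma with no variance trend, a pseudocount of 0.1 CPM or no filtering of low values. Removal of the length and GC trend, with or without the replicate block, also gave 0. A minimum of 5 CPM, where 319 of 6927 genes passed, gave 2 members (Sec61g and Spcs1). The same 2 passed with a pseudocount of 5 CPM, where 386 of 10894 genes did. Quality weights gave 4 (Sec61g, Spcs1, Ssr3 and Ssr4), where 15.4% of all genes passed in either direction. The replicate block gave 3 (Sec61g, Sec62 and Spcs1), where 5.13% passed in either direction. AP replicate 2 has no partner in that fit, and the fold change of Sec62, 1.39, was the same as with AP replicate 2 left out. Leaving out each library gave 0 to 2. The other genes of the lists that passed numbered 3. They were 0 with the deposited values, no trend, no filter, or block and trend removal together, and 1 with trend removal or a pseudocount of 0.1. They were 17 with quality weights, where 15.4% of all genes passed in either direction, and 0 to 10 with each library left out. Over all 8 libraries quality weights, with which 9.3% of all genes passed in either direction, gave 2 members and 14 other genes against 0 and 0. Leaving out each library gave 0 to 1 members and 0 to 3 other genes. The members' median of 0.53 over 7 libraries became 0.28 with the trend removed, 0.32 with block and trend removal, 0.42 with quality weights, and 0.45 to 0.63 with each library left out. Over 8 libraries the median of 0.46 became 0.21 with the trend removed, with or without the block, and 0.41 to 0.53 with each library left out. Signs changed over 8 libraries for Sec61b (-0.018 with the trend removed, with or without the block) and Ssr4 (-0.14 likewise, and -0.042 to 0.48 with each library left out, negative without AP_OCA replicate 4). The cause of these differences was not tested. Over all genes the 266 calls of 7 libraries became 113 with the deposited values, 103 with the trend removed, 26 with block and trend removal, 14 without limma's trend, 0 without a filter, 156 with a pseudocount of 0.1, 1675 with quality weights (775 higher, 900 lower, against 93 and 173) and 559 with the block, and ran from 7 to 973 with each library left out. The replicate numbers did not pair the libraries: same-numbered deviations correlated at -0.17 to 0.12 over 8 libraries and -0.07 to 0.05 over 7, and 1 of 4 AP_OCA libraries correlated best with its own number. Leaving out AP_OCA replicate 1 gave the highest counts among the fits over 7 libraries that leave out a library. Unknown depth and the shared value distribution limit what these levels can show.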
